A study of Mus musculus with 34 samples.

Results

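Slco1c1, Dio2, Thra, Thrb, Klf9, Hr and Crym are 7 genes of thyroid hormone transport and response, picked by symbol from the 23951 genes listed in each mouse. They were chosen as a group because Slco1c1 had been seen to be lower in all 3 mutant groups of hippocampus, so the levels of Slco1c1 in those contrasts are given as a description and were not tested. RNA sequencing covered 20 hippocampi and 7 samples of sorted GFAP+ cortical nuclei with files used here, 1 library per mouse. The hippocampal groups were control (Hdac1f/f, 4 mice, aged 13 to 14 months), Hdac1 cKO (Hdac1f/f, Nestin-Cre, 5 mice, 13 to 14 months), 5XFAD (Hdac1f/f, 5XFAD, 6 mice, 13 months) and compound transgenic (Hdac1f/f, Nestin-Cre, 5XFAD, 5 mice, 13 months). The nuclei came from control (Hdac1f/f, 3 mice) and Hdac1 cKO (Hdac1f/f, Nestin-Cre, 4 mice) cortex at 13 months. All groups carried the floxed Hdac1 allele. Nestin-Cre deletes in the neural lineage, which gives rise to neurons and astrocytes, and the controls carried no Cre. The 5XFAD transgenes, which make a mouse model of amyloid deposition, are driven by the neuronal Thy1 promoter.

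Thyroid hormone reaches brain cells through membrane transporters at the blood-brain barrier, the choroid plexus and the cell surface. The prohormone T4 is converted to the active T3 by the deiodinase encoded by Dio2, which in the brain acts mainly in astrocytes, and is inactivated by the deiodinase encoded by Dio3, which acts mainly in neurons. T3 binds the nuclear receptors encoded by Thra and Thrb, which sit on response elements of target genes together with retinoid X receptors, and which recruit corepressor complexes that contain a histone deacetylase when no hormone is bound.

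The roles of the 7 genes cover that chain. Slco1c1 (chr6:141472907-141518241, mm9, forward strand) encodes OATP1C1, a T4 transporter of brain endothelium, choroid plexus and astrocytes. Dio2 (chr12:91962994-91976878, reverse strand) encodes the activating deiodinase, and Crym (chr7:127329894-127345625, reverse strand) encodes mu-crystallin, a cytosolic T3-binding protein. Thra (chr11:98601952-98630320, forward strand) and Thrb (chr14:18493474-18870602, forward strand) encode the receptors. Klf9 (chr19:23215716-23241401, forward strand), a zinc finger transcription factor, and Hr (chr14:70952019-70973355, forward strand), a corepressor, are classical T3-induced genes in brain. All 7 are protein-coding in the annotation of this build.

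The study looked at guanine-rich promoter elements, so the promoter of the transporter is shown beside those of a receptor gene and of a target gene whose levels in Hdac1 cKO hippocampus all lay above control, by less than 1.5-fold and not called. RefSeq promoters of build GRCm38.p6 were matched for 4 of the 7 genes (Slco1c1, Dio2, Thrb and Klf9). Each sequence below is the 250 bases before the annotated start, read 5′ to 3′ along the strand of the gene. Capitals mark 3 motifs, found on either strand: the GC box core GGGCGG, the GA box GGGAGG and the thyroid hormone response half-site AGGTCA.
Slco1c1 (chr6:141524104-141524353, forward strand): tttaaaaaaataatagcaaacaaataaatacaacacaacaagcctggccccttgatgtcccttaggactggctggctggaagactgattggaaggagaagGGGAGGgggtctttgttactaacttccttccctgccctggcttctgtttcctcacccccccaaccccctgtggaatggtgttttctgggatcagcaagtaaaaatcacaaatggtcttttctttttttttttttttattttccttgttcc
Thrb, first start site (chr14:17660710-17660959, forward strand): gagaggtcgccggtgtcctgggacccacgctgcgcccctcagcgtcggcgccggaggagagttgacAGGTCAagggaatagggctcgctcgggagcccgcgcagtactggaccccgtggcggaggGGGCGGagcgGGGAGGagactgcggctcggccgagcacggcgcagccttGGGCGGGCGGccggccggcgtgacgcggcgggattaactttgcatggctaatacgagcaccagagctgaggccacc
Klf9 (chr19:23140976-23141225, forward strand): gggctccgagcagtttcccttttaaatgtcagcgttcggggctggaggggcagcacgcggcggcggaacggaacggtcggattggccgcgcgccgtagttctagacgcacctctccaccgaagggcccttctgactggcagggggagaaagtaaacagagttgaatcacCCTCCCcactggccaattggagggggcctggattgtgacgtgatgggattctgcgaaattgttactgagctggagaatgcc

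The Slco1c1 promoter had 42.8% GC, below the median of 52.4% over all promoters of this length. It held 1 GA box and neither of the other motifs. The first Thrb promoter had 71.6% GC, with 3 GC box cores, of which a pair overlap, 1 GA box and 1 half-site. Klf9 had 59.6% GC and 1 GA box, on the reverse strand. Dio2 (41.6% GC) and the second Thrb start site (44% GC) held none of the motifs. Of 32817 promoters of the same length, 32.7% held a GC box core, 38.0% a GA box and 14.0% a half-site. A match of letters is a description and not a binding site.

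Values are FPKM, fragment counts scaled to transcript length and library size. The hippocampal libraries were made from the 3′ ends of transcripts and the nuclear ones from whole transcripts, so levels were compared between groups within a gene and tissue, and not between genes or tissues. A gene was called changed when it differed by at least 1.5-fold with an unadjusted limma p under 0.05, the study's thresholds, and the p adjusted over all genes (Benjamini-Hochberg) is given beside it. A lack of overlap between groups is given as a description, since the share of all genes without overlap was not counted. Depth, read from the steps between low FPKM values and given relative to control mouse 1, ran from 0.753 to 2.35 in hippocampus and from 0.867 to 1.26 in nuclei. Hdac1 itself was 5.91 to 10.7 FPKM in the 4 control mice, 2.36 to 3.03 in Hdac1 cKO, 6.10 to 9.64 in 5XFAD and 1.15 to 2.52 in compound transgenic mice. In the nuclei it was 9.91 to 22.3 in controls and 5.80 to 11.5 in Hdac1 cKO, and these overlapped (two-sided exact permutation p = 0.114). Thy1 was 303 to 388 FPKM without and 1563 to 2357 with the 5XFAD transgenes. Neuronal markers summed to 1679 to 2096 FPKM in hippocampus and 209 to 295 in GFAP+ nuclei. Astrocyte markers summed to 3288 to 4009 in the nuclei. In hippocampus they summed to 1216 to 1338 in control, 1225 to 1347 in Hdac1 cKO, 1327 to 1552 in 5XFAD and 1479 to 1648 in compound transgenic mice, the last above every control mouse. Of 11 astrocyte markers, 0, 1 (Gfap) and 2 (Gfap and Aqp4) were called higher in Hdac1 cKO, 5XFAD and compound transgenic mice against control. Gfap had a median of 25.2 FPKM in control, 26.2 in Hdac1 cKO, 95.2 in 5XFAD and 98.6 in compound transgenic mice.

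The choroid plexus, which makes transthyretin and expresses thyroid hormone transporters, lies beside the hippocampus, and its RNA differed widely between mice. The summed FPKM of 15 choroid plexus markers was 683, 18711, 21715 and 13960 in the 4 control mice. It was 109 to 1744 in Hdac1 cKO, 111 to 8444 in 5XFAD and 113 to 14650 in compound transgenic mice. Control mouse 1 was the low one of its group, and compound transgenic mouse 1 was the high one of its group at 14650, the next being 345. Ttr made up 48.6% to 94.9% of these sums, and the other 14 markers alone summed to 107, 1226, 1569 and 1057 in control, 52.4 to 136 in Hdac1 cKO, 57.0 to 553 in 5XFAD and 54.1 to 740 in compound transgenic mice. All 15 markers passed the thresholds as lower in Hdac1 cKO, 0 in 5XFAD and 9 in compound transgenic hippocampus, with medians of -2.99, -1.49 and -2.45 on the log2 scale. None of them passed an adjusted p of 0.05 in these limma fits. Ependymal markers were also called lower, 5, 3 and 2 of 5, and 1 of them passed an adjusted p of 0.05 in Hdac1 cKO. The shares of all genes called in either direction were 3.36%, 2.95% and 4.24% in these 3 contrasts. Markers of brain endothelium, which with astrocytes is another site of Slco1c1, summed to 137 to 165 FPKM in control, 124 to 173 in Hdac1 cKO, 105 to 191 in 5XFAD and 151 to 161 in compound transgenic mice. Of 15 endothelial markers tested, 0, 0 and 1 were called lower.

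Slco1c1 was lower on average in each mutant group of hippocampus than in control. It measured 8.46, 17.0, 18.1 and 14.6 FPKM in the 4 control mice (14.5 ± 4.32, SD, n = 4). In Hdac1 cKO mice it was 5.21, 7.58, 7.25, 6.68 and 9.42 FPKM (7.23 ± 1.53, n = 5). In 5XFAD mice it had a lowest value of 6.69, a median of 8.08 and a highest of 9.33 FPKM (8.09 ± 1.14, n = 6). In compound transgenic mice it was 9.63, 5.68, 3.83, 4.88 and 5.77 FPKM (5.96 ± 2.19, n = 5). Every mutant group therefore overlapped control, because control mouse 1 lay within or near the mutant range, while the other 3 control mice lay above all 16 mutant mice. The log2 differences from control were -0.89 in Hdac1 cKO, -0.73 in 5XFAD and -1.16 in compound transgenic mice, all 3 against the same control mice, and the interaction of both was 0.46. Without control mouse 1 the first 2 became -1.11 and -0.95. Over left-out mice the interaction ran from 0.29 to 0.68.

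**Figure D1:**
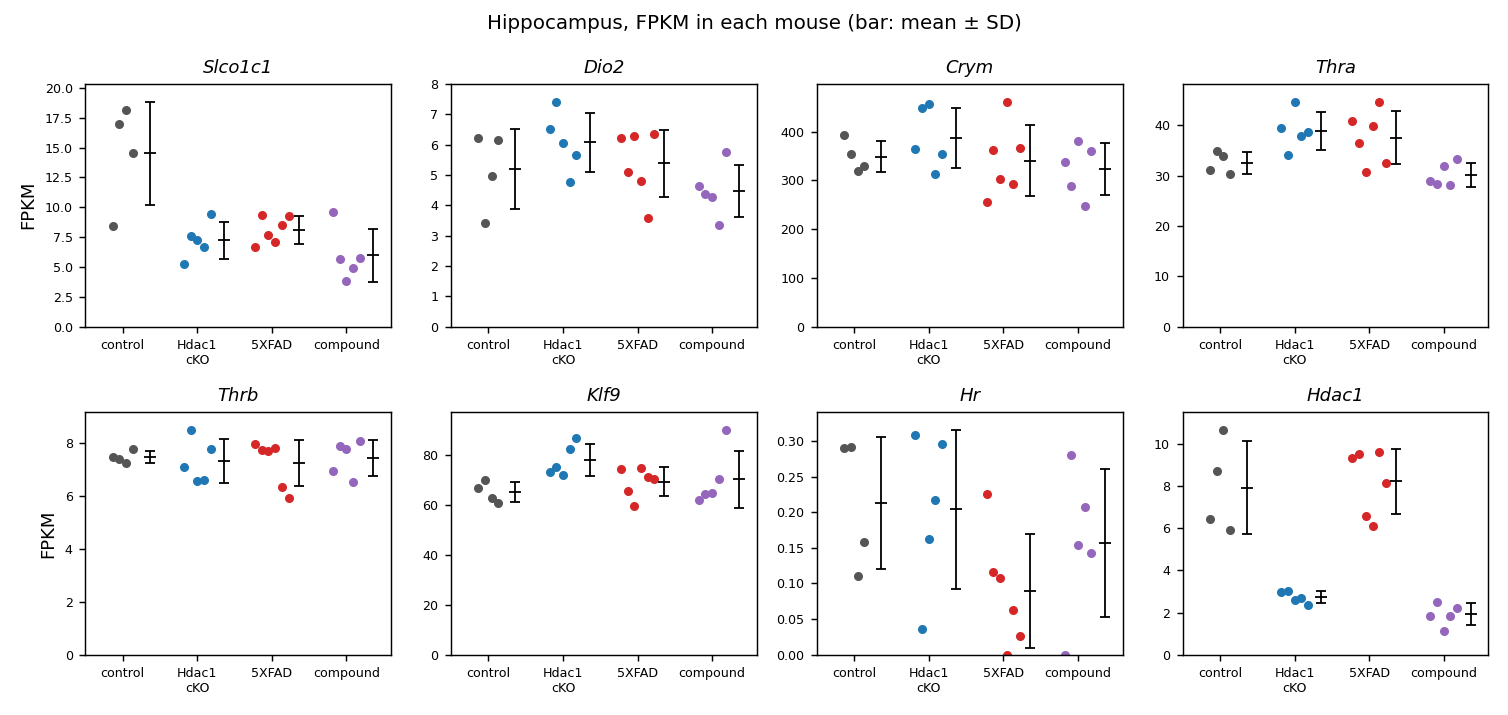
FPKM of the 7 genes and of Hdac1 in each hippocampal mouse, by group, on linear axes from 0. Each point is 1 mouse and the bar beside it is the group mean ± SD. Slco1c1 was 14.6 to 18.1 in 3 control mice and 8.46 in the fourth, against 3.83 to 9.63 in the mutant mice. Hdac1 was lower in every mouse with Nestin-Cre (1.15 to 3.03) than in any without (5.91 to 10.7). Klf9 was higher in every Hdac1 cKO mouse than in any control mouse, by less than 1.5-fold on average and not called.

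The level of Slco1c1 followed the choroid plexus markers across mice. The low control mouse, with a choroid marker sum of 683 FPKM, had the lowest control Slco1c1 at 8.46, and the compound transgenic mouse with a sum of 14650 had the highest of its group at 9.63. The Hdac1 cKO mouse with a sum of 1744 also had the highest of its group, 9.42. The match was not complete, since 4 of the 5XFAD mice had sums of 3331 to 8444 and Slco1c1 of 6.69 to 9.33, and the 2 with sums of 111 and 219 had 8.51 and 7.05. Over the 20 mice, after group means were removed, Slco1c1 had a Pearson r of 0.66 with Ttr, 0.69 with the log2 choroid marker sum, 0.10 with the endothelial sum and -0.42 with the astrocyte sum. With the log2 choroid marker sum as a covariate, an alternative chosen after the data were seen, the log2 difference of Slco1c1 was -0.06 in Hdac1 cKO, -0.58 in 5XFAD and -0.57 in compound transgenic hippocampus, and the interaction fell from 0.46 to 0.16. In the first of these only control mouse 1 overlapped the marker range of the cKO mice, so group and choroid content cannot be told apart there. In whole tissue, fewer cells of a type and less RNA per cell cannot be told apart either.

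**Figure D2:**
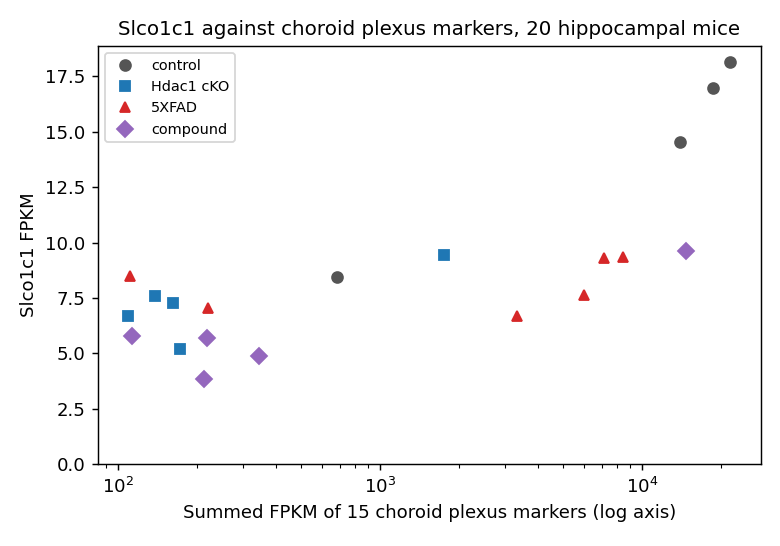
FPKM of Slco1c1 in each of the 20 hippocampal mice against the summed FPKM of 15 choroid plexus markers on a log axis. Symbols mark the 4 groups. The 3 control mice with sums of 13960 to 21715 carry the highest Slco1c1, and control mouse 1, at a sum of 683, lies among the mutant mice.

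The genes whose levels were most like that of Slco1c1 within groups, among 12995 genes averaging 1 FPKM or more, were Trpv4 (r = 0.86), Ephx1 (0.85), Sgms2 (0.84), Msx1 (0.84) and Steap1 (0.82). The last is one of the 15 choroid plexus markers. With the other tested genes of the 7, its r ran from -0.16 to -0.05. These are descriptions over 20 mice that share their libraries.

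Between compound transgenic and 5XFAD hippocampus, Slco1c1 was 0.43 lower on the log2 scale in compound transgenic mice (difference -0.43, SE 0.17, 95% interval -0.80 to -0.05). The choice of genes did not use this contrast. It did use the Slco1c1 values of both groups, each against control, so the contrast is not independent of that choice. Of the 5 compound transgenic mice, 4 lay below all 6 5XFAD mice and 1, mouse 1 at 9.63 FPKM, lay above them all. The limma adjusted p was 0.734, the fold was under 1.5, so it was not called, and the two-sided exact permutation p was 0.0584. Without compound transgenic mouse 1, the one with abundant choroid plexus markers, the difference was -0.59 and passed both thresholds. With the choroid covariate it was -0.30, under the fold threshold. The choroid markers had a median difference of -0.96 in this contrast, none of 15 called, and their part in the result beyond this covariate was not tested.

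In GFAP+ nuclei Slco1c1 did not pass the thresholds. It was 76.6, 77.1 and 73.6 FPKM in the control mice and 86.9, 64.3, 88.1 and 84.3 in the Hdac1 cKO mice, a log2 difference of 0.08 (95% interval -0.25 to 0.41, limma adjusted p = 0.990). Of the cKO mice, 3 lay above all controls and 1 below. Cldn5 was 24.9 to 43.2 FPKM in control nuclei and 15.6 to 22.2 in cKO nuclei. Pecam1, another endothelial gene, was 0.667 to 1.01 and 0.666 to 0.940, and these overlapped. Endothelial markers summed to 175 to 245 and 134 to 199, also overlapping. Their part in the Slco1c1 values was not tested.

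Among 9 other genes of transport, 7 were tested in hippocampus. In Hdac1 cKO mice 1 of the 7, Ttr, was called lower and none higher, beside 3.36% of all genes called in either direction, with a list median of -0.13 on the log2 scale beside 0.00 over all genes. Ttr, the T4-binding carrier made by the choroid plexus and itself one of its 15 markers, had a log2 difference of -5.57 (limma adjusted p = 0.214). It was -0.04 and not called with the choroid covariate, a sum that Ttr is itself part of. Ttr was 576 to 20146 FPKM in control, 53.8 to 7892 in 5XFAD and 58.9 to 13910 in compound transgenic mice. It was called in neither of these against control. In compound transgenic mice it was called lower without limma's trend and robust options or with all 4 hippocampal groups fitted together. It was also called there without control mouse 1 or compound transgenic mouse 1. Slco2b1, an organic anion transporter, was the only 1 of the 7 called in 5XFAD mice, where 2.95% of all genes were. It was 1.32 to 2.10 FPKM in the control mice and 3.01 to 5.26 in the 5XFAD mice, with no overlap (log2 difference 0.75, limma adjusted p = 0.0577, exact permutation p = 0.00476, the smallest for 4 against 6 mice). It was also the only 1 of the 7 called in compound transgenic mice (0.70, adjusted p = 0.334), beside 4.24% of all genes. There its 1.95 to 6.04 FPKM overlapped control, and in Hdac1 cKO mice it was 0.784 to 2.31. The compound transgenic call of Slco2b1 was lost without control mouse 1 (0.60), or compound transgenic mouse 2 (0.54) or 4 (0.58), and with the choroid covariate, where the difference was larger at 0.76 but missed the p threshold. Microglial markers moved with it, summing to 146 to 178 FPKM in control, 145 to 171 in Hdac1 cKO, 269 to 337 in 5XFAD and 292 to 546 in compound transgenic mice, and 5 of 8 were called higher in both groups with the transgenes. Their part in the Slco2b1 values was not tested. Slc7a5, a large neutral amino acid transporter that also carries thyroid hormone, was 0.254 to 0.741 FPKM in control and 0.431 to 1.34 in Hdac1 cKO mice. It was not called (0.44, limma adjusted p = 0.407), but was when the fold was the ratio of mean FPKM (means of 0.409 and 0.925).

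**Figure D3:**
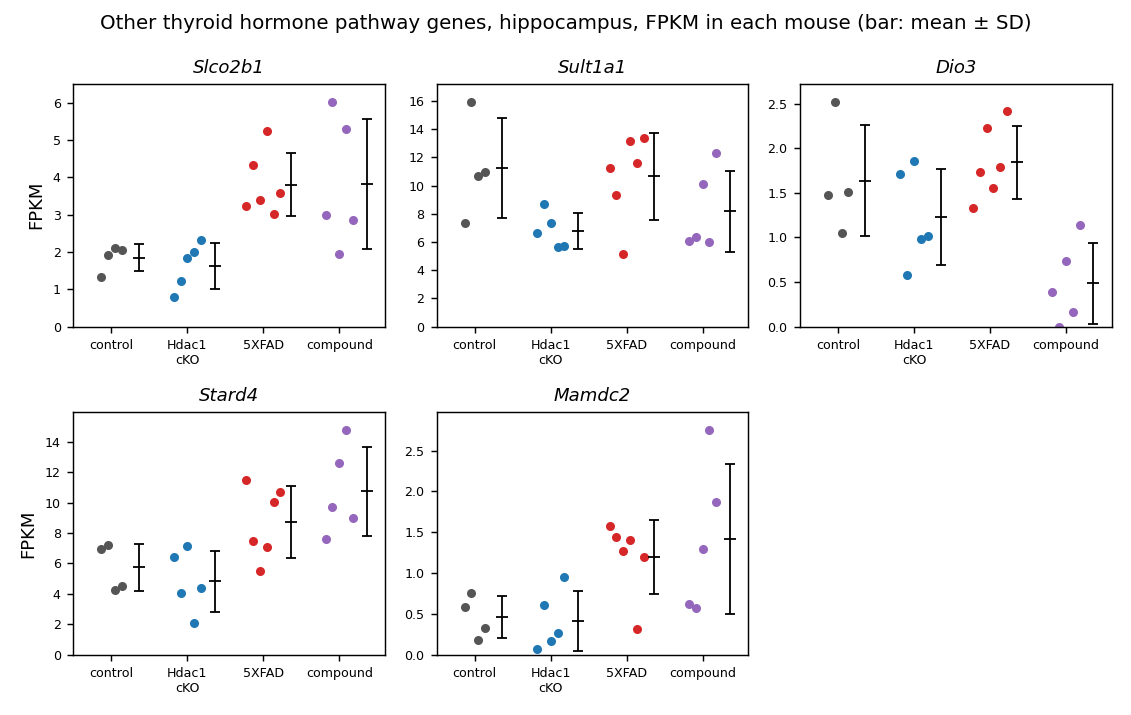
FPKM of 5 other genes of the thyroid hormone pathway in each hippocampal mouse, by group, on linear axes from 0, with the group mean ± SD beside the points. Slco2b1 was 3.01 to 5.26 in 5XFAD against 1.32 to 2.10 in control mice, and Dio3 was at or below 1.13 in every compound transgenic mouse against 1.33 to 2.41 in 5XFAD mice.

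Dio2 did not pass the thresholds in any comparison. It was 6.23, 3.42, 4.97 and 6.15 FPKM in control mice, 4.77 to 7.42 in Hdac1 cKO, 3.60 to 6.34 in 5XFAD and 3.34 to 5.75 in compound transgenic mice. The groups overlapped throughout. The astrocyte marker sum, higher in the 2 groups with the transgenes, had an r of -0.23 with Dio2 within groups, and its part in the Dio2 values was not tested. The log2 differences of Dio2 from control were 0.21 (95% interval -0.16 to 0.58) in Hdac1 cKO, 0.05 (-0.33 to 0.44) in 5XFAD and -0.16 (-0.57 to 0.24) in compound transgenic mice. The compound transgenic to 5XFAD difference was -0.22 (-0.55 to 0.12), and the interaction was -0.43 (-0.91 to 0.06). In GFAP+ nuclei Dio2 was 14.4, 13.6 and 15.3 FPKM in control mice and 20.5, 22.0, 20.4 and 15.3 in Hdac1 cKO mice. Of the cKO mice, 3 lay above all controls, and the log2 difference of 0.40 (limma adjusted p = 0.984) was under 1.5-fold. The two-sided exact permutation p was 0.0857, where 0.0286 is the smallest that 3 against 4 mice allow. Astrocyte markers summed to 3288 to 3996 FPKM in control and 3453 to 4009 in cKO nuclei. Of 11 such markers tested, 0 were called, 4 had a log2 difference below 0, and the median difference was 0.04. Medians in control and cKO nuclei were 82.6 and 121 FPKM for Aldh1l1 and 75.5 and 119 for Aqp4. They were 73.8 and 81.0 for Gfap and 688 and 706 for Slc1a2. The part of these markers in the Dio2 values was not tested.

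Of the 5 other enzymes of hormone turnover tested in hippocampus, Sult1a1 was called in Hdac1 cKO, none in 5XFAD, and Dio3 in the other 3 hippocampal comparisons, beside 3.36%, 2.95%, 4.24% (compound transgenic against control), 1.28% (against 5XFAD) and 4.07% (interaction) of all genes. Dio3 was 1.33, 1.73, 2.22, 1.56, 1.79 and 2.41 FPKM in the 5XFAD mice. In the compound transgenic mice it was 0.387, 0 (as listed), 0.733, 0.165 and 1.13 FPKM, and every one lay below every 5XFAD mouse. The log2 difference was -0.98 (SE 0.20, limma adjusted p = 0.350), and the two-sided exact permutation p of 0.00216 is the smallest this design allows. Dio3 was called lower in compound transgenic than in control mice as well (-0.85, limma adjusted p = 0.216), and in the interaction (-0.73, limma adjusted p = 0.491). The interaction call was lost without control mouse 3 (-0.62), Hdac1 cKO mouse 3 (-0.63) or compound transgenic mouse 2 (-0.60). It was also lost with replicate numbers fitted as a block. Against 1.05 to 2.52 FPKM in control, Hdac1 cKO mice had 0.574 to 1.85 and were not called (-0.25, exact permutation p = 0.310). Dio3 is read here from low FPKM values. With the choroid covariate the compound transgenic to 5XFAD difference was again -0.98. Sult1a1, a sulfotransferase that can act on iodothyronines, was 7.36 to 16.0 FPKM in control and 5.63 to 8.68 in Hdac1 cKO mice (-0.62, limma adjusted p = 0.219, exact permutation p = 0.0317), the groups overlapping at control mouse 1. It was called, but not with the choroid covariate (-0.30) or with the replicate block. Nor was it called without control mouse 2 (-0.45), Hdac1 cKO mouse 4 (-0.56) or Hdac1 cKO mouse 5 (-0.57).

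Thra reached a 1.5-fold difference in no comparison. It was 31.1, 34.9, 34.0 and 30.3 FPKM in control mice (32.6 ± 2.21, n = 4). Hdac1 cKO mice had 39.5, 34.0, 44.6, 37.9 and 38.7 FPKM (38.9 ± 3.79, n = 5). The log2 difference between them was 0.25 (95% interval 0.04 to 0.45, limma adjusted p = 0.316, exact permutation p = 0.0238), and 4 of the 5 lay above all controls. In 5XFAD mice Thra had a lowest value of 30.8, a median of 38.1 and a highest of 44.7 FPKM (37.5 ± 5.26, n = 6), a log2 difference of 0.19 (exact permutation p = 0.124). Compound transgenic mice had 29.0, 28.3, 31.9, 28.2 and 33.3 FPKM (30.1 ± 2.31, n = 5). Against control their log2 difference was -0.11 (95% interval -0.31 to 0.09, limma adjusted p = 0.740). Against 5XFAD it was -0.30 (95% interval -0.53 to -0.07, limma adjusted p = 0.734, exact permutation p = 0.0216), with 3 of 5 mice below all 5XFAD mice.

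The difference of Thra with Hdac1 loss thus had opposite signs without and with the 5XFAD transgenes. The interaction was -0.55 on the log2 scale (SE 0.14, 95% interval -0.84 to -0.26), but its limma adjusted p was 0.297 and it was under 1.5-fold, so it was not called. Choroid plexus markers had a median interaction of 1.81, none of 15 called, and with their sum as a covariate the Thra interaction was -0.48. The sum of neuronal markers was 1759 to 2005 FPKM in control, 1855 to 2096 in Hdac1 cKO, 1679 to 1911 in 5XFAD and 1765 to 1991 in compound transgenic mice, so these overlapped. In nuclei Thra was 62.4 to 86.7 FPKM in control and 70.7 to 79.5 in cKO mice (log2 difference 0.07, 95% interval -0.26 to 0.40).

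Thrb stayed within a narrow range. It was 7.25 to 7.80 FPKM in control, 6.59 to 8.51 in Hdac1 cKO, 5.93 to 7.96 in 5XFAD and 6.54 to 8.08 in compound transgenic mice. The log2 differences from control were -0.03 (95% interval -0.27 to 0.21), -0.05 (-0.29 to 0.20) and -0.01 (-0.26 to 0.24), so a difference of 1.5-fold lay outside each interval. Against 5XFAD the compound transgenic difference was 0.04 (-0.20 to 0.28), and the interaction was 0.07 (-0.23 to 0.37). In nuclei it was 6.95 to 9.67 FPKM in control and 5.27 to 10.3 in cKO mice (-0.04, 95% interval -0.55 to 0.47). The 14 partner genes of the receptors examined included the retinoid X receptors, the corepressor Ncor1 and the deacetylase gene Hdac3. All 14 were tested in each comparison and 0 were called in any, beside 1.28% to 4.24% of all genes. The partner gene Tbl1x was 10.2 to 11.7 FPKM in control and 5.06 to 9.70 in compound transgenic mice. It was called there with a pseudocount of 0.1 and with the choroid covariate. Their list medians lay between -0.09 and 0.10 on the log2 scale.

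Klf9 separated Hdac1 cKO from control hippocampus, every cKO mouse lying above every control mouse. It was 66.9, 69.9, 62.8 and 60.7 FPKM in control mice (65.1 ± 4.13, n = 4), and 73.2, 75.3, 72.1, 82.3 and 86.8 in Hdac1 cKO mice (77.9 ± 6.33, n = 5). The log2 difference was 0.26 (95% interval 0.07 to 0.44, limma adjusted p = 0.259), below 1.5-fold, so it was not called. The two-sided exact permutation p of 0.00794 is the smallest that 4 against 5 mice allow. How many of all genes separate these mice in the same way was not counted. An unadjusted limma p under 0.05, which Klf9 had, was found for 11.7% of all genes. The choroid covariate left a difference of 0.32 that no longer had an unadjusted p under 0.05. In 5XFAD mice Klf9 was 59.4 to 74.8 FPKM (log2 difference 0.09, 95% interval -0.11 to 0.28) and in compound transgenic mice 62.0 to 90.0 (0.10, -0.15 to 0.34), both overlapping control. The compound transgenic to 5XFAD difference of Klf9 was 0.01 (-0.21 to 0.24), and its interaction was -0.24 (-0.53 to 0.04). In nuclei it was 55.9, 68.2 and 64.5 FPKM in control and 69.7, 62.8, 105.0 and 70.4 in cKO mice, and 3 of the 4 lay above all controls (0.26, 95% interval -0.15 to 0.68, adjusted p = 0.984). Thra and Klf9 had an r of 0.43 within groups over the 20 hippocampal mice, and the genes most like Klf9 were Zfp365 (0.80), Tmem132a (0.80), Dopey1 (0.80), Gpd1 (0.79) and Zfp180 (0.79).

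Hr was near the floor of the hippocampal libraries, at 0.110 to 0.291 FPKM in control, 0.0362 to 0.309 in Hdac1 cKO, up to 0.225 in 5XFAD and up to 0.281 in compound transgenic mice. It was listed at 0 in 1 5XFAD and 1 compound transgenic mouse. It did not reach the mean of 0.5 FPKM required for a test there. In nuclei it was 4.08, 3.25 and 3.58 FPKM in control and 3.21, 2.11, 2.91 and 3.18 in Hdac1 cKO mice. All 4 cKO mice lay below all 3 controls, by a narrow margin at the nearest pair, and how many of all genes do so was not counted. The log2 difference was -0.27 (95% interval -0.76 to 0.21, limma adjusted p = 0.984) and the two-sided exact permutation p was 0.0857.

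Of the 14 other genes listed as raised by T3, 12 or 13 were tested and 1 of 13 was called, in compound transgenic against control, where 4.24% of all genes were. Stard4, a sterol transfer protein, was 4.28 to 7.20 FPKM in control and 7.63 to 14.8 in compound transgenic mice, with no overlap (log2 difference 0.80, SE 0.21, limma adjusted p = 0.152, exact permutation p = 0.0159). Its difference was 0.53 with the choroid covariate and not called. Both groups with the transgenes, in which Stard4 and Mamdc2 lay higher, also had 5 of 8 microglial markers and 1 or 2 of 11 astrocyte markers called higher against control, and the part of those cells in these values was not tested. In 5XFAD mice it was 5.53 to 11.5 FPKM (0.52, exact permutation p = 0.0476), below the fold threshold. Nrgn, the synaptic protein neurogranin, was 427 to 565 FPKM in control and 529 to 605 in Hdac1 cKO mice (0.24, limma adjusted p = 0.311) and was not called. Of the 8 genes listed as lowered by T3, 6 or 7 were tested and 1 of 7, Mamdc2, was called higher in compound transgenic mice (0.66, adjusted p = 0.422), where its median was 1.30 FPKM and its highest value 2.75, beside 0.185 to 0.759 in control. Its lowest value in compound transgenic mice lay within the control range, 3 of 5 mice lay above all controls, and the exact permutation p was 0.0714. That call was lost without any 1 of 5 mice, control 3 or 4 or compound transgenic 3, 4 or 5 (0.48 to 0.66). The choroid covariate (0.37), per-gene variances (0.66) and replicate numbers fitted as a block also ended that call. In 5XFAD mice Mamdc2 was 0.317 to 1.57 FPKM and not called (0.57), but called without control mouse 1 (0.61) or 2 (0.66) or 5XFAD mouse 5 (0.71). Mamdc2 was also called there with a pseudocount of 0.1, ratios of mean FPKM, the replicate block or the choroid covariate. Stard4 in 5XFAD mice was likewise called without control mouse 1 (0.61) or 2 (0.63) or 5XFAD mouse 3 (0.63). A pseudocount of 0.1 or ratios of mean FPKM also gave that call. The median of the T3-raised genes was -0.10 in Hdac1 cKO, 0.05 in 5XFAD, 0.12 in compound transgenic mice and -0.11 in nuclei, and that of the T3-lowered genes 0.09, -0.03, 0.32 and -0.20. The medians over all genes tested lay between -0.01 and 0.01.

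Crym was abundant and did not separate the hippocampal groups. It was 393, 354, 319 and 329 FPKM in control, 314 to 456 in Hdac1 cKO, 256 to 461 in 5XFAD and 248 to 381 in compound transgenic mice. The log2 differences from control were 0.14 (95% interval -0.11 to 0.39), -0.06 (-0.37 to 0.25) and -0.12 (-0.39 to 0.14). Between compound transgenic and 5XFAD mice it was -0.06 (-0.38 to 0.25), and the interaction was -0.20 (-0.63 to 0.22). In GFAP+ nuclei it was 25.9, 38.9 and 24.1 FPKM in control and 14.4, 19.5, 25.2 and 17.0 in Hdac1 cKO mice. The log2 difference was -0.61 (SE 0.22, 95% interval -1.10 to -0.12), which passed the study's thresholds, but its adjusted p was 0.984. The two-sided exact permutation p was 0.0857, and 3 of the 4 cKO mice lay below all controls. The call was lost without control mouse 3 (-0.40), Hdac1 cKO mouse 1 (-0.49) or Hdac1 cKO mouse 4 (-0.57), with per-gene variances (-0.61) and with the choroid covariate (-0.57). These nuclei had been sorted as GFAP+ after staining for GFAP and for NeuN, a marker of neurons. Neuronal markers still summed to 209 to 295 FPKM in control and 209 to 240 in cKO nuclei. Their median difference was -0.20, with none of 9 called, and their part in the Crym values was not tested.

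**Figure D4:**
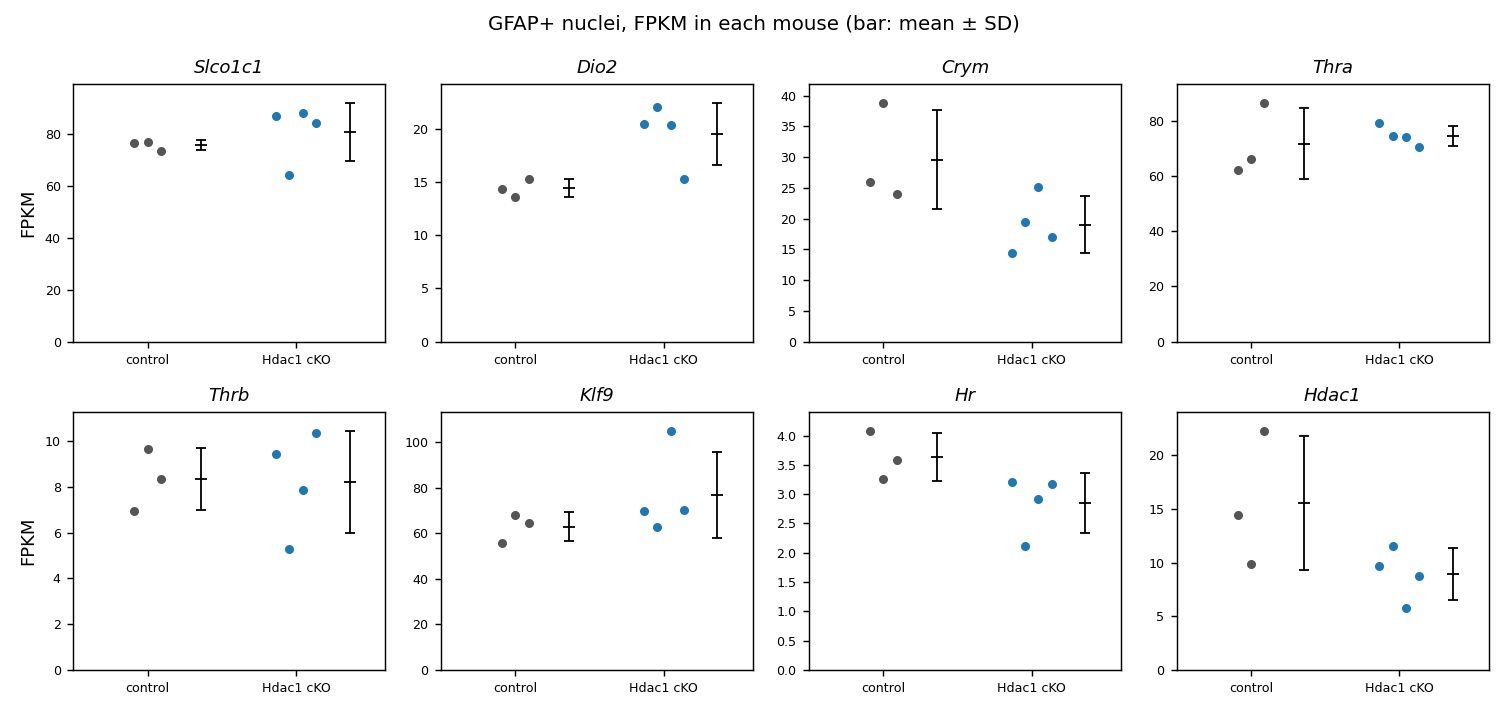
FPKM of the 7 genes and of Hdac1 in GFAP+ nuclei from each mouse, control (n = 3) and Hdac1 cKO (n = 4), on linear axes from 0, with the group mean ± SD beside the points. Dio2 lies higher in 3 of 4 cKO mice, Crym lower in 3 of 4 and Hr lower in all 4.

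In the nuclei 3 other pathway genes were called, 2 of 8 of transport and 1 of 3 of hormone turnover, beside 2.58% of all genes. Slc16a10, an aromatic amino acid and thyroid hormone transporter, was 1.73, 1.59 and 1.79 FPKM in control and 2.66, 5.02, 3.16 and 2.97 in Hdac1 cKO mice, with no overlap (log2 difference 0.69, limma adjusted p = 0.984, exact permutation p = 0.0286, the smallest possible). Sephs2, which serves the making of selenoproteins such as the deiodinases, was 7.11 to 9.22 FPKM in control and 1.73 to 6.15 in cKO mice, also with no overlap (-0.82, limma adjusted p = 0.984, exact permutation p = 0.0571). Ttr was 10.7, 6.40 and 131 FPKM in control and 162, 95.9, 246 and 200 in cKO mice (2.89, limma adjusted p = 0.984), overlapping at control mouse 4. The Slc16a10 call was lost without Hdac1 cKO mouse 2 (0.54) and with replicate numbers fitted as a block. That of Sephs2 was lost without control mouse 1 (-0.83) or 4 (-0.73) or Hdac1 cKO mouse 1 (-0.51), with per-gene variances (-0.82) and with the choroid covariate (-1.03, past the fold but not the p threshold). That of Ttr was lost without any 1 mouse but control mouse 4 (2.09 to 3.16), with per-gene variances (2.89), with the replicate block and with the choroid covariate (0.57). Choroid plexus markers summed to 55.7, 83.5 and 223 FPKM in these control mice and 167 to 353 in the cKO mice, a sum that is mostly Ttr in the mice where it is high. Without Ttr the other 14 markers summed to 45.1, 77.1 and 91.9 FPKM in control and 61.5 to 107 in cKO mice, which overlapped. Of 12 choroid markers tested in nuclei, 3 were called higher, Calml4 (1.32), Folr1 (1.04) and Ttr, with a median of 0.34, and the part of these markers in the other values was not tested.

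Few of the 7 genes were called over the 6 comparisons. With Slco1c1 set aside where it defined the choice and Hr below the level for testing, 0 of 5 genes were called in Hdac1 cKO against control, where 3.36% of 14265 genes were, and 2 of 5 (Thra and Klf9) had an unadjusted p under 0.05, as did 11.7% of genes. With the choroid covariate the differences were no smaller (0.32 for each of Thra and Klf9), but neither kept that p. In 5XFAD against control 0 of 5 were called beside 2.95% of genes, and 0 of 5 had an unadjusted p under 0.05 beside 10.7%. In compound transgenic against control the counts were 0 of 5 beside 4.24% and 0 of 5 beside 10.5%. In compound transgenic against 5XFAD they were 0 of 6 beside 1.28% and 2 of 6 (Slco1c1 and Thra) beside 6.61%. The Slco1c1 values of both these groups, each against control, had entered the choice of genes. In the interaction the counts were 0 of 5 beside 4.07% and 1 of 5 (Thra) beside 8.97%. In GFAP+ nuclei 1 of 7 (Crym) was called beside 2.58% of genes, and 2 of 7 (Dio2 and Crym) had an unadjusted p under 0.05 beside 4.7%. No tested member passed an adjusted p of 0.05 in limma in any of the 6 comparisons, and neither did any other pathway gene, so the calls rest on unadjusted p-values.

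**Figure D5:**
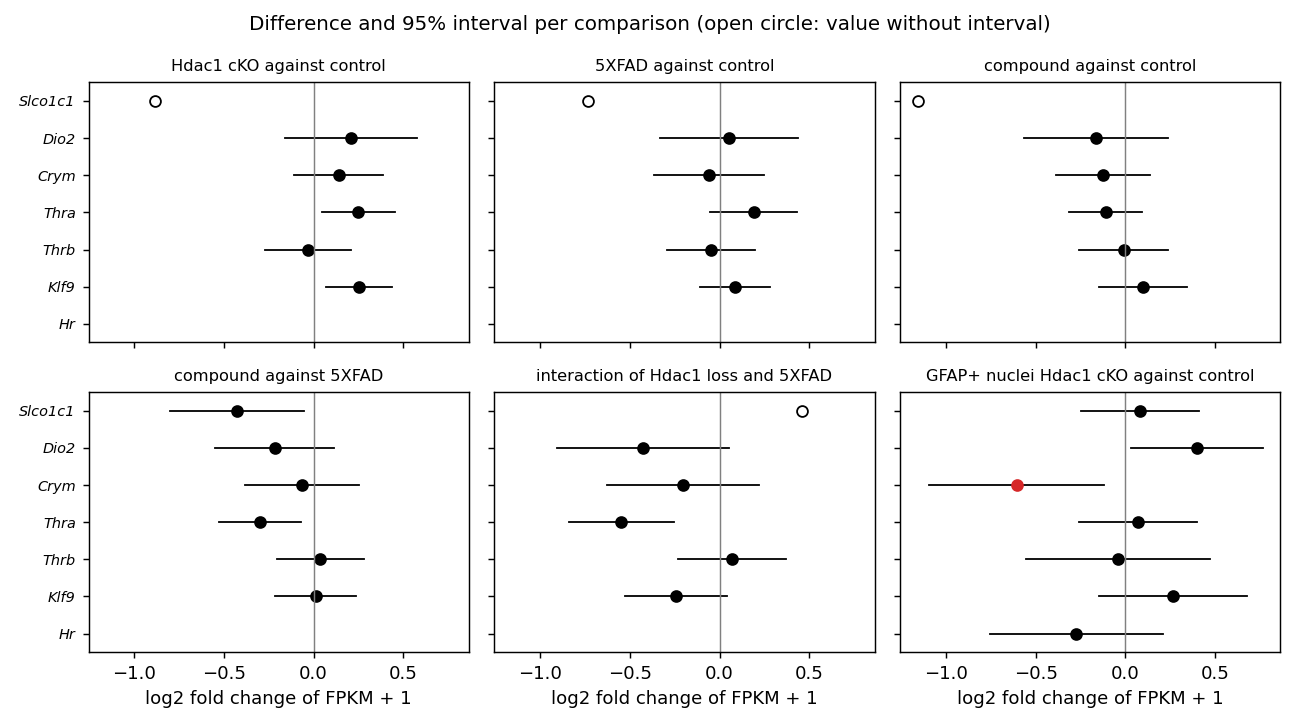
Log2 difference of FPKM + 1 for each gene in the 6 comparisons, with its 95% limma interval. Open circles are Slco1c1 in the contrasts that defined the choice of genes, without interval, and the red point is the one called, Crym in nuclei (-0.61). Slco1c1 lies at -0.89, -0.73 and -1.16 in the 3 contrasts with control, and Hr has no point in hippocampus.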

How the data were processed

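Hippocampal libraries were 3′ Digital Gene Expression libraries, and GFAP+ nuclei, sorted from cortex with antibodies to GFAP and NeuN, were amplified with SMART-Seq v4. The authors aligned the hippocampal reads to mm9 with TopHat, and the deposited values are FPKM from Cufflinks 2.0.0. The aligner of the nuclear libraries is not given in the sources used here. Of 34 samples, 27 had expression files. Not analysed here were control nuclei of mouse 2 and the 6 samples of ChIP-seq. FPKM carry no counts, so precision rests on the spread between mice, each counted as 1 replicate.

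Genes averaging 0.5 FPKM or more in the mice compared were fitted as log2(FPKM + 1) with limma 3.58.1 in R 4.3.3, with trend and robust moderation, using only the groups compared. Fold changes are on that scale, which understates low genes. The method was tested on simulated data. Single genes also had two-sided exact permutation tests of the group means of log2(FPKM + 1) (numpy 2.4.6). Sums over markers are of FPKM. Text names the 7 genes in every comparison where they were tested or described, up to 4 called genes a direction from each pathway list, Hdac1, Thy1, markers, and the 5 genes with the highest r after removing group means. Nrgn, Slc7a5 and the uncalled values of pathway genes were added after their values were seen. The members and lists were chosen with earlier results of these data known, and a pair of the listed genes is not reported here. Replicate numbers did not pair the mice. Alternatives were another pseudocount, filter, normalization, variance model, set of groups, threshold or block, leaving out each mouse, and, added after seeing the data, a choroid plexus covariate.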

Additional observations from a re-analysis of the deposited data

Results flagged for a closer look

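The lowest Slco1c1 value among the 4 Hdac1 cKO samples of GFAP+ nuclei, 64.3 FPKM in mouse 2, lay far from the other 3, which were 84.3 to 88.1. It was the only such value in 35 groups of 4 or more mice examined over these genes. Chance alone gives about 1 such value in every 20 groups, so 1 in 35 is no more than chance gives. Its marker sums for endothelium (134 FPKM), pericytes (222) and astrocytes (3453, the others being 3815 to 4009) were also the lowest of its group, and their part in the value was not tested.

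The difference of Thra between Hdac1 loss with and without the 5XFAD transgenes stood out by its interaction of -0.55 on the log2 scale (limma adjusted p = 0.297). The log2 difference of Thra was 0.25 in Hdac1 cKO against control and -0.30 in compound transgenic against 5XFAD hippocampus.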

How the results depend on the processing

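Among the 7 genes, Slco1c1 left out of the counts where it defined the choice and Hr not reaching the mean for a test in hippocampus, the count of 0 calls in each hippocampal comparison stayed 0 in the alternatives run, except that without compound transgenic mouse 1 Slco1c1 was called against 5XFAD (leave-one-out counts of 0 to 1) and that Thra was called in the interaction without Hdac1 cKO mouse 2 or 5XFAD mouse 3 or 6 (0 to 1). In nuclei the 1 call became 0 with per-gene variances, with the choroid covariate or at an adjusted p of 0.05, and 0 to 1 over left-out mice. Of the other pathway genes, the 2 calls in Hdac1 cKO became 1 with the replicate block (Sult1a1 lost), 0 at an adjusted p of 0.05, and 1 to 2 over left-out mice. The 1 call in 5XFAD became 4 with a pseudocount of 0.1, 4 with ratios of mean FPKM, 3 with the replicate block, 2 with the choroid covariate, 0 at an adjusted p of 0.05, and 1 to 5 over left-out mice. The 4 calls in compound transgenic against control became 2 with a filter at 1 FPKM, 0 at an adjusted p, and 3 to 5 over left-out mice. The 1 call against 5XFAD became 2 with the block, 2 with the choroid covariate, 0 at an adjusted p, and 1 to 2 over left-out mice. The 1 interaction call (Dio3) became 0 with the block and at an adjusted p, and 0 to 2 over left-out mice. The 3 calls in nuclei became 1 with per-gene variances, 0 at an adjusted p, and 1 to 4 over left-out mice. Under the choroid covariate the counts hid changes of gene: 0 of the 2 called in Hdac1 cKO, 1 of the 4 in compound transgenic against control (Dio3) and 1 of the 3 in nuclei (Slc16a10) were among the 2, 3 and 4 then called. The causes were not tested.

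Signs of differences among the 7 genes that were not called turned as follows. With the choroid covariate, in Hdac1 cKO Dio2 was -0.0615, Thrb 0.0209 and Crym -0.0648, Klf9 was -0.0256 in compound transgenic against control and -0.0479 against 5XFAD, and in nuclei Slco1c1 was -0.0028 and Thra -0.15. With the replicate block Thrb was 0.0546 in 5XFAD, -0.0110 in compound transgenic against 5XFAD and 0.13 in nuclei. Thrb in compound transgenic against control was 0.0053 with quantile normalization and 0.0077 with median scaling, and Klf9 against 5XFAD was -0.0369 with quantile normalization. Over left-out mice, Dio2 (-0.10 to 0.14), Thrb (-0.0721 to 0.0020) and Crym (-0.15 to 0.0179) turned in 5XFAD, Thrb (-0.0358 to 0.0312) in compound transgenic against control, Thrb (-0.0110 to 0.0781), Klf9 (-0.0795 to 0.0528) and Crym (-0.14 to 0.0285) against 5XFAD, and Thra (-0.0227 to 0.21) and Thrb (-0.15 to 0.13) in nuclei.

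Same-numbered mice did not deviate together (27 hippocampal pairs, r from -0.11 to 0.09, none over 0.1, and 3 nuclear pairs from -0.04 to 0.05), so the numbers are taken as names, and the block changed no other count by over 1.5 times. It did end the calls of Mamdc2 in compound transgenic against control and of Slc16a10 and Ttr in nuclei.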
